A study of Mus musculus with 6 samples.

Results

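The EphA receptors and their ephrin-A ligands were measured as a group of 10 genes: the receptors Epha2, Epha3, Epha4, Epha5 and Epha7, and the ligands Efna1, Efna2, Efna3, Efna4 and Efna5. They were taken by symbol, and the list was chosen with earlier results of these data known. Comparisons of the group with all genes are thus a description and not a test. Their symbols in the deposited tables were EPHA2, EPHA3, EPHA4, EPHA5, EPHA7, EFNA1, EFNA2, EFNA3, EFNA4 and EFNA5. Each of the 10 was found once among the 23282 gene rows. RNA was sequenced from 3 control and 3 JAG1-overexpressing libraries of a mouse astrocyte line from brain. Every library is labelled Ink4a -/-, so the control cells also lack this tumor suppressor locus. The control cells carried the empty vector pcDNA3.1-puro, and the other cells carried pcDNA3.1-JAG1-puro, which expresses JAG1, a cell-surface ligand of NOTCH receptors. The genotype label of the control libraries is WT, which was read here as without JAG1. How many clones the transfected cells came from is not given in the sources used here, and neither is whether replicate libraries stem from different cultures, so the p-values measure only the spread between these libraries, which may be technical.

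Eph receptors are the largest family of receptor tyrosine kinases, and both they and their ligands sit on cell surfaces, so that they act where cells touch. EphA receptors mainly bind ephrin-A ligands, which are held in the membrane by a glycosylphosphatidylinositol anchor. Binding starts a forward signal in the receptor cell and a reverse signal in the ligand cell, and the outcome is often repulsion through small GTPases and the actin cytoskeleton. In the brain the family is best known for axon guidance and tissue boundaries, for Epha4 on astrocytes and neurons, and for altered EphA2 and ephrin-A1 levels in glioma.

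In JAG1-overexpressing astrocytes, 5 of the 6 EphA and ephrin-A genes that passed the filter on low counts were lower than in control. None was higher in the edgeR test as reported here, also at an unadjusted p under 0.05, and none by DESeq2 or limma, but Epha2 was called higher in 3 other edgeR fits: without a filter on low counts, with the replicate number as a block and without control replicate 3. The receptor Epha4 fell 6.15-fold, the ligand Efna4 5.42-fold, Efna2 3.82-fold, Efna1 2.13-fold and Efna5 1.32-fold. Across all 11712 genes tested, 27.7% were called lower and 27.4% higher at an adjusted p under 0.05. The median log2 fold change of the 6 tested members was −1.51, against 0.00386 over all tested genes. At a fall of at least 2-fold, 4 of the 6 were counted, against 8.49% of all tested genes. The libraries were made from transcript 3′ ends and held between 14341634 and 20489062 counts. In bulk RNA, fewer cells with a transcript and less transcript per cell cannot be told apart.

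Sequence upstream of the members that fell most is shown because JAG1 acts through NOTCH and its DNA-binding partner RBPJ, and because its intracellular fragment is studied together with SMAD3. RefSeq promoter windows of GRCm38.p6 (250 bases before and 50 after the annotated start) were given for all 10 members, 13 windows in all. The letters GTCTG of the SMAD3 element, or CAGAC on the other strand, were found in 49.6% of all 32851 windows and in 9 of the 13 member windows (7 of the 10 genes). The letters TGGGAA of the RBPJ element, or TTCCCA, were found in 25.6% of all windows and in 4 of the 13 member windows (3 of the 10 genes). Capitals mark these letters in the 250 bases before the start, printed 5′ to 3′ along the gene's strand, from chr1:77515089-77515338 (minus) for Epha4, chr3:89279646-89279895 (minus) for Efna1, chr10:80179232-80179481 (plus) for Efna2 and chr3:89338029-89338278 (minus) for Efna4. The Efna1 stretch lies inside the annotated gene, before the start of its shorter transcripts.
Epha4: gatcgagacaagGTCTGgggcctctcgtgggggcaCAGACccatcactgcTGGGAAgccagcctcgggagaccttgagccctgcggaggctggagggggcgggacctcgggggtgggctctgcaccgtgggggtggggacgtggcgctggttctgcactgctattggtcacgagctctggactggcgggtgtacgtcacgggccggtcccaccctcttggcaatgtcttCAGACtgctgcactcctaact
Efna1: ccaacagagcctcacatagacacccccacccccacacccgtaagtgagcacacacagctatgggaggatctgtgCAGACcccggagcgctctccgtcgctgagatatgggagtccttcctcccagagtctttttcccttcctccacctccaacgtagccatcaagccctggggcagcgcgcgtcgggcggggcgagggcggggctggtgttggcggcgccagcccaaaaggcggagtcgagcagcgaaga
Efna2: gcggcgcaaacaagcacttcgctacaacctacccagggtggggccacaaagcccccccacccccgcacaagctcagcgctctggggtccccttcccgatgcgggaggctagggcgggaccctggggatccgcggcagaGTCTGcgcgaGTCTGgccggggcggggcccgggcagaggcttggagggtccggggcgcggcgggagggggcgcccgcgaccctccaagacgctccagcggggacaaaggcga
Efna4: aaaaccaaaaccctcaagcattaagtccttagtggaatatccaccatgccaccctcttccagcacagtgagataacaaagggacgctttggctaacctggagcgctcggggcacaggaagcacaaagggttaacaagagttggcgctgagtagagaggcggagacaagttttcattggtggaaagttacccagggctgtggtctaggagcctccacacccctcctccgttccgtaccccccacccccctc

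Epha4 held GTCTG or its complement at −238, −215 and −21 and TGGGAA at −200, counted from the start. Efna2 held GTCTG at −112 and −102, and the printed stretch of Efna1 held its complement at −176. The Efna4 window, the stretch with the lowest GC content (54.4%, against 64.4% to 73.6% in the other 3), held neither, and so did those of Efna5 and Epha2. Members that fell were thus found both with and without these letters. A match is a description of the sequence and not a bound site, and no match concerns only this window.

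Jag1 and cell type markers were read first. Jag1 had 182, 201 and 214 counts in control and 304, 197 and 227 in the JAG1-overexpressing libraries. In CPM, counts scaled to 1e+06 per library after TMM normalization, it rose from 10.3 ± 1.18 to 14.2 ± 0.862 (SD, n = 3), and the groups did not overlap (log2 fold change 0.46, SE 0.11, edgeR quasi-likelihood test with Benjamini-Hochberg adjusted p 0.00446). Of all tested genes, 27.4% were called higher, so a rise of this size does not by itself check the labels. Whether the vector's transcript ends in the sequence counted for Jag1 is not given in the sources used here. The cells are called astrocytes here as labelled, but of 11 astrocyte markers, Gfap and Aqp4 had no read in any library, and Slc1a3, Slc1a2 and Fabp7 had at most 3 in any library. The other 6 were tested, and 5 were lower in JAG1-overexpressing cells (27.7% of all tested genes), among them Sox9 (181 to 18.0 CPM) and Aldh1l1 (2.98 to 0.781 CPM). Vim had 3106 and 3213 CPM. The summed level of the astrocyte list was 3265 to 3750 CPM in control and 3342 to 3407 CPM in JAG1 libraries. Most of this sum was Vim, so it does not show the falls of the other markers. The summed neuronal list lay between 27.3 and 28.4 CPM in control and between 50.8 and 52.9 with JAG1, where Map2 was higher, Stmn2 lower, and Snap25 and Syt1 had no read. Nearly all of this sum was Map2 (25.1 to 51.3 CPM). The summed fibroblast list lay between 323 and 325 CPM in control and between 214 and 257 with JAG1, where Col1a2 was higher, Col1a1, Dcn and Pdgfrb were lower, and Lum had no read. Most of this sum was Col1a1 (236 to 164 CPM), so it does not show the rise of Col1a2 from 3.35 to 50.7 CPM. Of the 5 microglial markers, Cx3cr1 was higher and Tmem119 lower, and the list summed to 3.14 to 3.97 CPM in control and to at most 2.27 with JAG1. Behind these calls, 27.4% of all tested genes were higher and 27.7% lower. S100b, Stmn2, Dcn and Tmem119 passed the filter through their control libraries alone, so only a fall could be called. Cx3cr1 passed it through its JAG1 libraries alone, so only a rise could be called. The oligodendrocyte and endothelial lists summed to at most 1.19 CPM in any library, with Mog, Sox10 and Tek at 0. The part of these lists in the results below was not tested.

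**Figure D1:**
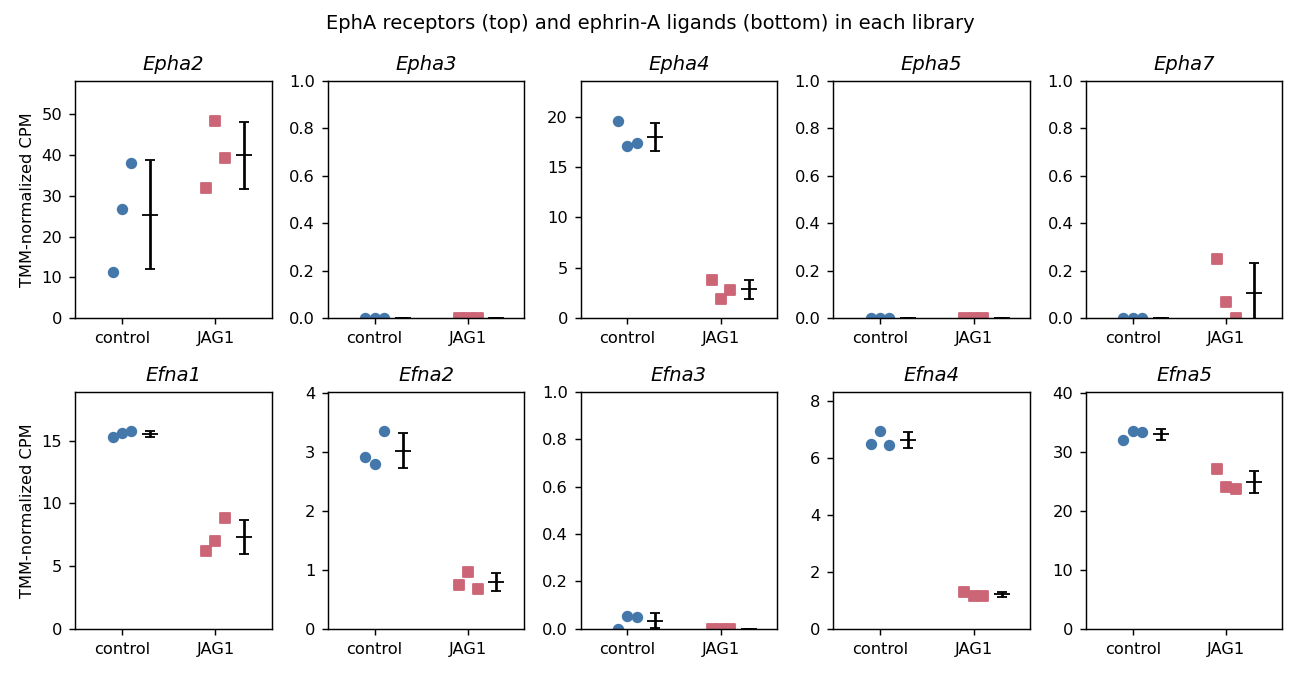
TMM-normalized CPM (vertical axes, linear from 0, scaled for each gene) of the 10 EphA receptor and ephrin-A ligand genes, with a point for each of 3 control (circles) and 3 JAG1-overexpressing (squares) libraries and the group mean with SD beside them. Epha4, Efna1, Efna2, Efna4 and Efna5 had every JAG1 point below every control point, and Epha2 overlapped.

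Among the receptors, only Epha2 and Epha4 passed the filter on low counts. Epha3 and Epha5, both receptors with roles in axon guidance, had no read in any of the 6 libraries. Epha7, another receptor of the developing nervous system, had no read in the control libraries and 5, 1 and 0 in the JAG1-overexpressing libraries, close to the limit of 3 counts that was taken for detection. That limit corresponds to between 0.148 and 0.206 CPM per library, so lower levels of these 3 receptors were not detectable at this depth.

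Epha4, at GRCm38 chr1:77367182-77515107 on the minus strand, is the EphA receptor with the widest choice of partners, since it also binds ephrin-B ligands, and the upstream sequence printed for it held the most matches of the 4. It had 397, 318 and 332 counts in the control libraries and 77, 28 and 46 in the JAG1-overexpressing libraries. In CPM these were 19.6, 17.1 and 17.4 in control, and 3.84, 1.93 and 2.79 with JAG1. All JAG1 libraries lay below all control libraries, and JAG1 replicate 1 was the highest of its group. The mean fell from 18.0 ± 1.38 to 2.85 ± 0.957 CPM (SD, n = 3). The log2 fold change was −2.62 with a 95% interval of −3.01 to −2.23 (edgeR adjusted p 3.24e-07).

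Epha2, at chr4:141301221-141329384 on the plus strand, is the EphA receptor most often studied in carcinoma and glioma, where it can signal with or without a ligand. Its libraries did not separate by group as those of Epha4 did. Its level was 11.3, 26.9 and 38.0 CPM in the control libraries and 32.0, 48.5 and 39.3 in the JAG1-overexpressing libraries. The groups overlapped, as control replicate 3 lay above JAG1 replicate 1, while control replicate 1 lay far below the other 5 libraries. With means of 25.4 ± 13.4 and 40.0 ± 8.25 CPM, the log2 fold change of 0.65 (95% interval −0.04 to 1.34) did not pass the test (edgeR adjusted p 0.0993). This interval holds both no difference and a rise of more than 2-fold. The value turned on the control libraries: it was 0.29 (adjusted p 0.0954) without control replicate 1 and 1.06 (adjusted p 0.00424) without control replicate 3. Fitted with the replicate number as a block, the log2 fold change was 0.76 (edgeR adjusted p 0.00438).

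The make-up of the EphA receptor counts also differed between the groups. Epha4 gave 63.4% of the counts of the 5 receptors in control replicate 1 (95% Wilson interval 59.6 to 67.1), 38.8% in replicate 2 (35.5 to 42.2) and 31.4% in replicate 3 (28.7 to 34.2). In the JAG1-overexpressing libraries it gave 10.6% (8.58 to 13.1), 3.81% (2.65 to 5.46) and 6.64% (5.01 to 8.74). The highest JAG1 share thus lay under the lowest control share, although the control shares were spread widely along with Epha2. Epha2 gave 36.6%, 61.2% and 68.6% of the receptor counts in control and 88.7%, 96.0% and 93.4% with JAG1. The summed level of the 5 receptors ran from 30.9 to 55.3 CPM in control and from 36.1 to 50.5 CPM with JAG1, so it overlapped. These shares are of 3′-end counts and were not divided by transcript length, and their intervals cover counting error only.

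**Figure D2:**
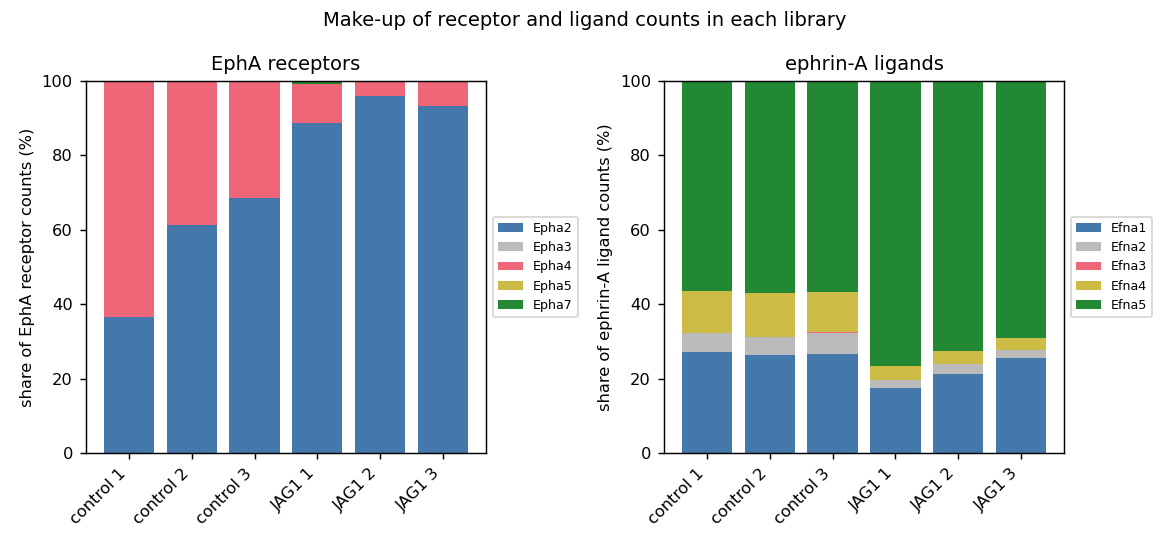
Stacked bars give each gene's percent (vertical axis, from 0) of the counts of the 5 EphA receptors and of the 5 ephrin-A ligands in each of the 6 libraries. Epha2 filled 88.7% to 96.0% of the receptor counts in the JAG1 libraries against 36.6% to 68.6% in control, and Efna5 filled 69.0% to 76.7% of the ligand counts against 56.4% to 56.9%.

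All 4 ephrin-A ligands that passed the filter were lower with JAG1, as were 27.7% of all tested genes. Efna3, the remaining ligand, had 0, 1 and 1 counts in control and none in the JAG1-overexpressing libraries, which is under the limit of detection. The summed level of the 5 ligands was between 56.6 and 59.0 CPM in control and between 33.2 and 35.3 CPM with JAG1, with no overlap between the groups.

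Efna4 (chr3:89333393-89338028, minus strand), a ligand with broad binding to EphA receptors, had 6.47, 6.93 and 6.43 CPM in control and 1.30, 1.17 and 1.15 with JAG1. Its log2 fold change was −2.44 (SE 0.17, edgeR adjusted p 3.90e-07), close in size to that of Epha4. Efna1 (chr3:89271730-89280951, minus strand), the ligand best known for its binding to EphA2 and first found as a gene induced by tumor necrosis factor, had 15.3, 15.6 and 15.7 CPM in control. With JAG1 it had 6.18, 7.02 and 8.81 CPM, and the log2 fold change was −1.09 (SE 0.13, edgeR adjusted p 2.54e-05). For both ligands, the gap between the groups was wider than the range within either group.

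Efna2 (chr10:80179482-80190010, plus strand), a ligand that guides retinal and other axons, had the lowest level of the tested members. Its libraries had 59, 52 and 64 counts in control and 15, 14 and 11 with JAG1, or 3.02 ± 0.292 and 0.793 ± 0.153 CPM (SD, n = 3). The groups did not overlap, and the log2 fold change was −1.93 (SE 0.24, edgeR adjusted p 4.48e-05). Efna5 (chr17:62602957-62881317, minus strand), a ligand that acts on axons in the visual system and on neuronal adhesion, had the highest CPM of the ligands and changed least. It had 31.9, 33.5 and 33.4 CPM in control and 27.1, 24.1 and 23.7 with JAG1. JAG1 replicate 1 came nearest to the control libraries, but the groups did not overlap (log2 fold change −0.40, SE 0.08, edgeR adjusted p 0.00128). As a share of the ligand counts, Efna5 had 56.4%, 56.9% and 56.6% in control and 76.7%, 72.5% and 69.0% with JAG1, while the other tested ligands fell further.

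**Figure D3:**
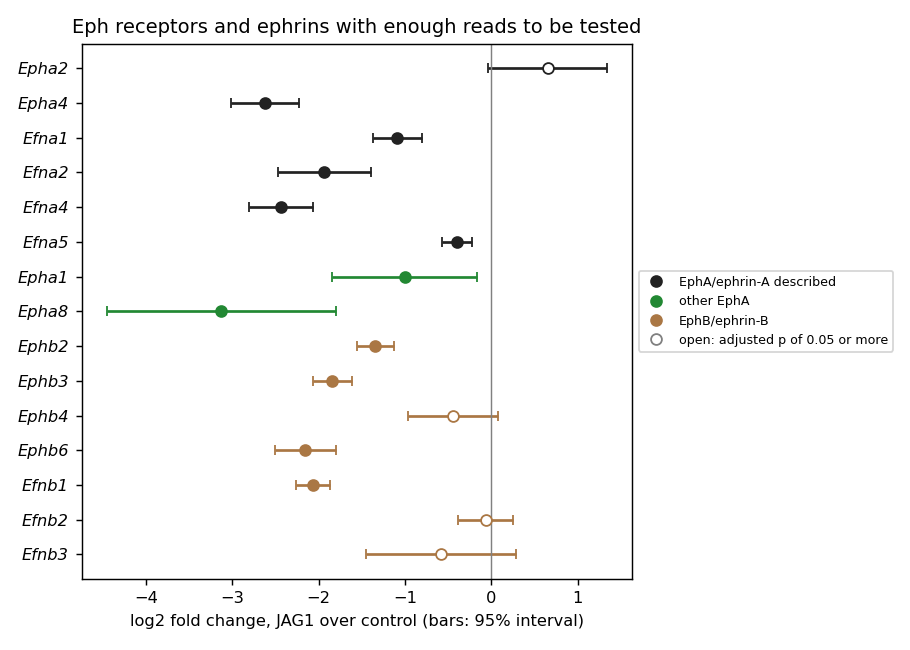
Points give log2 fold changes (JAG1-overexpressing over control, horizontal axis) with 95% intervals for the tested EphA and ephrin-A members, for Epha1 and Epha8, and for the EphB receptors and ephrin-B ligands, and open points did not pass the test. Epha2 was the only tested gene of these families with a point above 0, and its interval reached below 0.

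Across all tested genes, 30.9% had every JAG1 library below every control library, against 5 of the 6 tested EphA and ephrin-A members. Of the EphA receptors that were not in the group of 10, Epha6 and Epha10 had no read. Epha8 had 24, 10 and 19 counts in control and 1, 3 and 1 with JAG1 (edgeR adjusted p 0.00110), and Epha1 passed the test narrowly with overlapping groups (log2 fold change −1.01, adjusted p 0.0436). Epha8 passed the filter through its control libraries alone, so only a fall could be called. Its JAG1 counts were at or under the limit of 3 counts taken for detection. The EphB receptors and ephrin-B ligands are the nearest relatives, and 7 of their 8 genes were tested, of which 4 were lower and none higher, also at an unadjusted p under 0.05 (27.7% and 27.4% of all tested genes). EphB2, which can bind ephrin-A5, is encoded by Ephb2, which fell from 22.3 to 8.73 CPM (log2 fold change −1.35, adjusted p 5.41e-07). The ephrin-B partners of EphA4 did not pass the test: Efnb2 had a log2 fold change of −0.07 (95% interval −0.38 to 0.25, adjusted p 0.704). For Efnb3 it was −0.59 (95% interval −1.46 to 0.28, adjusted p 0.227). Of these ephrin-B partners, Efnb2 had an interval that held no change of 2-fold, and that of Efnb3 was wider. Ephb3, Ephb6 and Efnb1 were the other genes of the EphB and ephrin-B families that fell.

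Efna1, Efna3 and Efna4 lie beside each other on chromosome 3, all on the minus strand, within 66.3 kb. Because Efna1 and Efna4 both fell, the genes within 50 kb of them were read as well, a choice made after their values were seen. Of 7 tested neighbours, 3 were higher with JAG1, 1 was lower and 3 did not pass the test. Over all tested genes, 27.4% were higher and 27.7% lower. The log2 fold changes of the 7 neighbours ran from −0.66 to 0.38. Slc50a1, the neighbour next to Efna1, was at 0.38 (edgeR adjusted p 0.00471), and Adam15, the neighbour next to Efna4, was at 0.18 (adjusted p 0.0751). The falls of −1.09 and −2.44 in Efna1 and Efna4 lay outside this range.

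**Figure D4:**
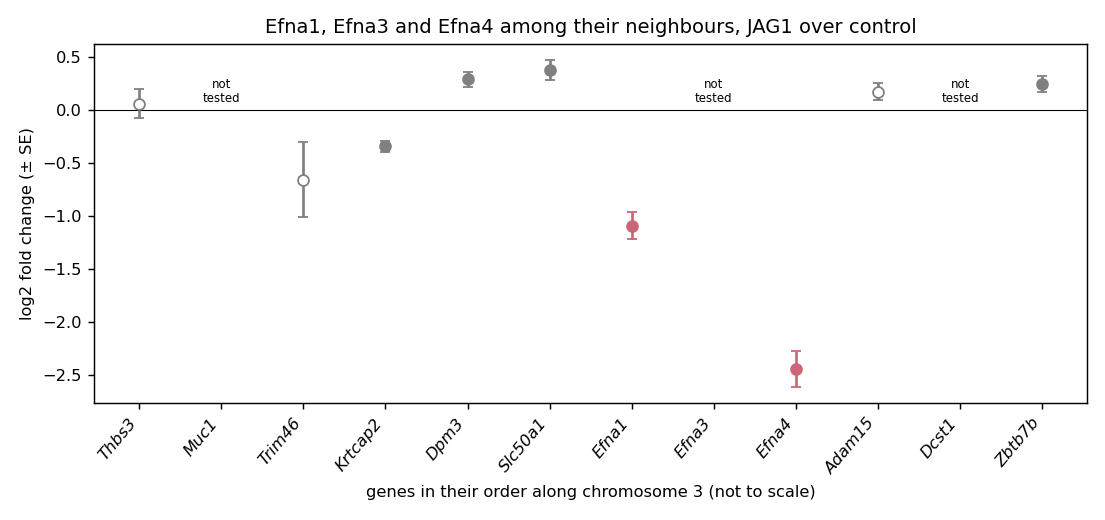
Points give log2 fold changes with SE (vertical axis) of the tested genes around Efna1 and Efna4, JAG1 over control, in their order along the chromosome (horizontal axis, not to scale), and open points did not pass the test. The ephrin genes sit at −1.09 and −2.44, and the 7 neighbours sit between −0.66 and 0.38.

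Other genes linked to Eph and ephrin signaling, inside the cell or at its surface, moved in both directions. Of 48 such genes, 39 were tested, 15 were higher with JAG1, 9 were lower and 15 did not pass the test, where 27.4% of all tested genes were higher and 27.7% lower. These shares are also the background for the counts of each class given next, which are small. The median log2 fold change of the 39 was 0.10. Of the exchange factors and GTPase-activating proteins, 1 of 7 tested was higher and 2 were lower. Tiam1, a RAC exchange factor that binds Eph receptors and ephrins, fell from 29.2 ± 2.08 to 6.74 ± 0.581 CPM (SD, n = 3, log2 fold change −2.11, edgeR adjusted p 2.03e-08). Chn1, which encodes α-chimaerin, the RAC-inactivating protein that acts below EphA4 in axons, fell from 10.7 ± 1.61 to 3.50 ± 0.597 CPM (log2 fold change −1.62, edgeR adjusted p 9.81e-06). Chn1 and Epha4 were thus both lower with JAG1.

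The kinases and adaptors were all tested, and 6 of the 15 were higher and 5 lower (27.4% and 27.7% of all tested genes). The SRC-family kinases, which Eph receptors activate and which ephrin-A ligands use for reverse signals, went different ways. Fyn fell from 15.4 to 5.91 CPM (log2 fold change −1.39, edgeR adjusted p 1.29e-05), while Lyn rose from 4.07 to 27.2 CPM (log2 fold change 2.74, adjusted p 6.61e-09) and Yes1 rose from 5.38 to 7.57 CPM (log2 fold change 0.49, adjusted p 0.0143). Src itself fell from 65.4 to 50.8 CPM (log2 fold change −0.36, edgeR adjusted p 0.00187). Lyn had the largest change of the 39 genes. Nck2, an adaptor that links activated receptors to actin, fell from 13.6 to 5.59 CPM (log2 fold change −1.28, adjusted p 1.10e-05).

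Of the GTPases and actomyosin genes, 5 of 9 tested were higher and 1 was lower (27.4% and 27.7% of all tested genes), with log2 fold changes between −0.31 and 0.41. Rock2, a kinase that RHOA activates to contract the cell, rose from 122 to 162 CPM (log2 fold change 0.41, edgeR adjusted p 0.000191). Among phosphatases, ubiquitin ligases and the ephrin sheddase Adam10, 2 of 6 tested were higher and 1 was lower. Ptpn1, the phosphatase PTP1B that removes phosphate from Eph receptors, rose from 58.6 to 94.4 CPM (log2 fold change 0.69, adjusted p 1.01e-05). Of the 5 genes linked to reverse signals of ephrin-A ligands, Ngfr, Ret and Ntrk2 were not tested, Gfra1 did not pass the test, and Cav1 was higher.

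**Figure D5:**
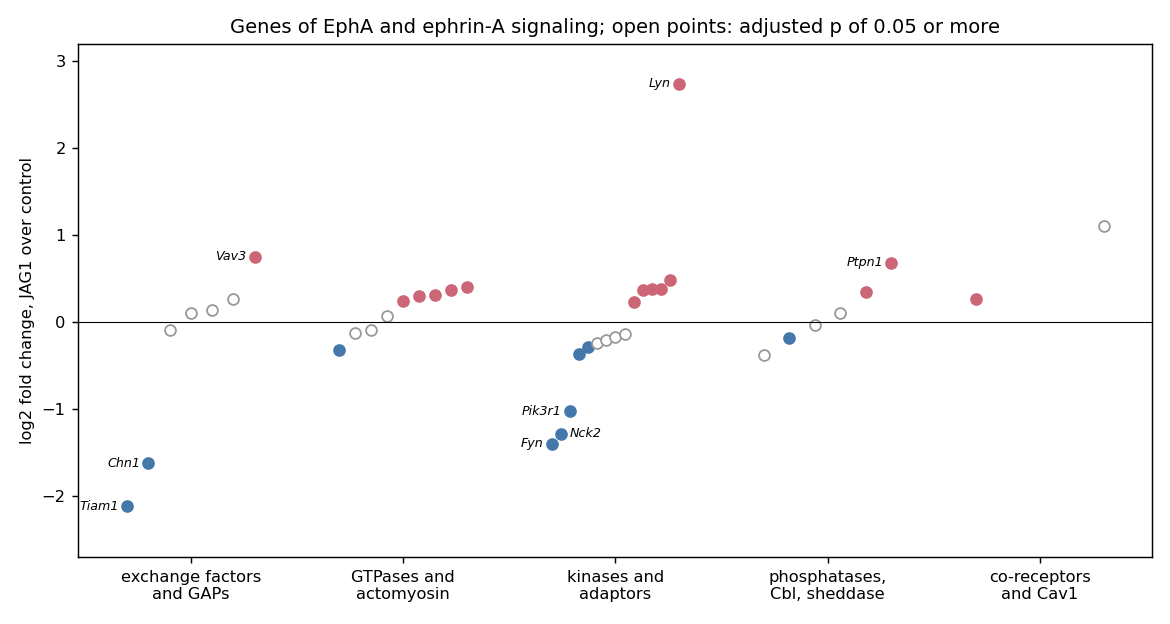
Each point is a tested gene of EphA and ephrin-A signaling in its functional class (horizontal axis), with its log2 fold change, JAG1 over control, on the vertical axis; filled points passed an adjusted p of 0.05. Most lay within 0.5 of 0, while Lyn at 2.74 and Tiam1 at −2.11 stood at the extremes.

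The tested genes outside the family whose levels over the 6 libraries followed Epha4 most closely were Stmn2, Mgst2 and Pkp1, at Euclidean distances of 0.286, 0.353 and 0.374 on centred log2 CPM. They fell with log2 fold changes of −3.03, −2.50 and −3.38, and a fall like that of Epha4 follows from how they were picked. Stmn2 encodes a microtubule-destabilizing protein of growing neurites, Mgst2 a microsomal glutathione transferase and Pkp1 the desmosomal protein plakophilin. Mgst2 was the most abundant of them, at 58.2 CPM in control and 10.2 CPM with JAG1. Stmn2 had 2.74 and 0.320 CPM. Pkp1 had 0.874 and 0.0701 CPM, the latter under the limit of detection. A prior count of 2 went into the log2 CPM, which narrows the differences of genes with few counts.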

How the data were processed

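RNA libraries were made with the QuantSeq 3′ mRNA kit. The authors deposited, for each of 6 libraries, a table of 23282 symbols with raw read counts and the log2 of a normalized count. The submitters' processing notes name Bowtie2, bedtools, edgeR and the build GRCm38 (mm10), without versions or roles. Raw counts were analysed in R 4.3.3 with edgeR 4.0.16 (TMM normalization, quasi-likelihood test of JAG1 against control on the 11712 genes that passed filterByExpr at a count minimum of 10), with Benjamini-Hochberg adjustment over all genes tested and a threshold of 0.05. CPM are TMM-normalized. Coordinates and promoters came from RefSeq, GRCm38.p6. A symbol on more than 1 row (37 symbols, none in the gene lists) was tested by row. The deposited log2 values served only for an alternative with limma 3.58.1. DESeq2 1.42.0, other normalizations and filters, a replicate block, fold limits and leaving out each library were the other alternatives. The members and the gene lists were chosen with earlier results of these data known. Named were all members, Jag1, Efnb2, Efnb3, Ephb2, the 4 largest rises and 4 largest falls of the signaling list among genes past the threshold with at least 5 CPM in the higher group, and the 3 genes nearest to Epha4; the chromosome 3 neighbours, and other genes mentioned, were named after their values were seen. Of the libraries, no pair agreed within sampling noise.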

Additional observations from a re-analysis of the deposited data

How the results depend on the processing

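Each alternative left 5 members lower except the fold limits of 1.5 and 2, which both left 4, without Efna5. Epha4, Efna1, Efna2, Efna4 and Efna5 passed the threshold in each fit that gave them a value. Leaving out each library in turn gave log2 fold changes of −2.91 to −2.42 for Epha4, −1.24 to −0.97 for Efna1, −2.07 to −1.83 for Efna2, −2.50 to −2.40 for Efna4 and −0.46 to −0.36 for Efna5. Epha2 ranged from 0.29 to 1.06 when each library was left out (adjusted p 0.00424 to 0.296). It was called higher in 3 settings, so that 1 member was then higher against 0 as reported (0 to 1 over the libraries left out): without control replicate 3, with no filter on low counts (0.65, adjusted p 0.00299), and with the replicate number as a block (0.76, adjusted p 0.00438). The cause was not tested.

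The replicate block changed no other member's call. Deviations from the group means of same-numbered libraries correlated at 0.208, 0.0571 and 0.138. Each control library correlated best with the JAG1 library of its number. In turn, JAG1 replicate 2 correlated slightly better with control replicate 3 (0.0580) than with control replicate 2. Whether libraries of the same number were made together is not given in the sources used here. The main fit left the number out, and the call of Epha2 depends on this choice. Under the block, 3380 genes were higher, against 3211.

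With fold limits added, the counts dropped by construction: at 1.5-fold 1395 genes were higher and 1711 lower, with 3 signaling genes higher and 5 lower. At 2-fold these were 639, 994, 1 and 5, against 3211, 3247, 15 and 9 without a limit. Depth limits Epha7 and Efna3, which the filter on low counts removed, and Epha3 and Epha5 had no read; without the filter, 8 members were tested in place of 6.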

Other observations

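The spread of Epha2 between the control libraries was shared by few genes. Of 7772 genes whose control mean was 10 CPM or more, 24 differed by at least 3-fold between the lowest and the highest control library, and the median ratio was 1.12. Epha2 was among the 24, with a ratio of 3.36, against 1.51 between the JAG1-overexpressing libraries. All 24 were lowest in control replicate 1 and highest in control replicate 3, as were 2099 of the 7772 genes. In the JAG1-overexpressing libraries, 2 of 7728 genes reached a ratio of 3. The 24 genes included Anxa1, with 72.8, 165 and 220.5 CPM in the control libraries, and they were picked out after their values were seen.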
